A study of Homo sapiens with 19 samples.

Results

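Gene expression was compared between 786-O cells in which HIF-1α had been restored and the same cells carrying an empty vector, across all genes. The 6 libraries of this comparison are those whose labels give the pRRL-HIF-1a or the pRRL vector, of 19 samples in the series and 9 RNA-seq libraries. Each HIF-1α library was set against the control library with the same replicate number, which makes 3 pairs. Of 23441 gene symbols in the count table, 14225 had enough reads to be tested. 786-O is an established line from a VHL-defective clear cell renal carcinoma. Because VHL is lost, HIF-2α, made from the cells' own EPAS1 gene, is not degraded, and this holds for every pool used here. The line carries only truncated HIF1A transcripts, which all pools share, so that the HIF-1α libraries differ from the controls by a full-length HIF-1α cDNA delivered by lentivirus. The control cells received the empty bicistronic pRRL.IRES.EGFP vector, which also encodes green fluorescent protein. Pools of infected cells were grown in standard medium, no hypoxia is given in the sources used here, and the promoter that drives the cDNA is not stated. PolyA+ RNA was prepared in triplicate, and nothing says whether the 3 preparations came from separate infections, so that p-values measure the spread between these libraries. The 3 libraries of cells given pRRL-HIF-2a enter the fit and serve as a second comparison.

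HIF-1 is a dimer of an oxygen-regulated α subunit (HIF-1α) and a constant β subunit (HIF-1β, gene ARNT). In normal cells prolyl hydroxylases mark the α subunits for the VHL ubiquitin ligase while oxygen is present, and in hypoxia the α subunits persist, bind DNA at hypoxia response elements with the core ACGTG or GCGTG, and raise transcription. HIF-1α is best known for inducing glycolytic enzymes, carbonic anhydrase IX and mitophagy receptors, whereas in clear cell renal cancer HIF-2α is linked to cyclin D1, TGFα and EPO. HIF-1α has been described as a brake on the growth of these tumours, and its restoration in a line that lacks it asks what this subunit adds when HIF-2α is already active.

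HIF1A (GRCh37, chr14:62162231-62214977) was the check of the labels. Its reads amounted to 30.4, 36.7 and 152 CPM (read counts scaled to library size, with TMM factors) in control libraries 1, 2 and 3 and 171, 1682 and 473 CPM in HIF-1α libraries 1, 2 and 3. Every HIF-1α library lay above every control library, but unevenly: replicate 2 had by far the most HIF1A, and control replicate 3 came close to HIF-1α replicate 1. The log2 fold change was 3.12 ± 0.71 (± SE, edgeR quasi-likelihood test with replicate block, adjusted p = 0.0418). This SE, like every ± below, comes from the F statistic of the fit to all 9 RNA-seq libraries. It is not the spread of the 3 pairs alone. Reads of the virus cannot be told from those of the endogenous truncated gene in these counts. CA9 (carbonic anhydrase IX, a cell surface enzyme that exports acid and a classic HIF-1α target) measured 0, 0.171 and 14.3 CPM in the controls and 8.46, 177 and 68.3 CPM after re-expression, a log2 fold change of 5.72 ± 1.35 (adjusted p = 0.0427). Here the groups overlapped, since control 3 exceeded HIF-1α library 1, and apart from that exchange the order of the 6 libraries was that of HIF1A. Both estimates moved with the replicates included: without replicate 2 they were 1.97 for HIF1A and 3.61 for CA9, and without replicate 3 they were 4.14 and 9.86.

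The other HIF subunits did not pass the test. EPAS1, which encodes HIF-2α, had 456, 224 and 162 CPM in the controls and 575, 627 and 397 CPM in the HIF-1α libraries, higher in all 3 pairs but overlapping between groups (log2 fold change 0.95 ± 0.43, adjusted p = 0.154). ARNT, the partner of both α subunits, gave 0.40 ± 0.23 (adjusted p = 0.25) and its neuronal relative ARNT2 0.14 ± 0.26 (adjusted p = 0.725). HIF3A had 2 to 9 reads per library and was not tested.

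Sequencing depth was 34739270 to 54287621 counted reads in the 6 libraries. All 10 markers of the line and its tissue (among them PAX8, VIM and KRT8) reached 1 CPM, while 8 blood markers summed to 0.129 to 0.801 CPM and 6 endothelial markers to 0.414 to 1.25 CPM per library. Fibroblast markers summed to 2.74 to 10.0 CPM in the controls and 2.53 to 19.7 CPM in the HIF-1α libraries. Markers of embryonic neural type, as in the HEK293T cells that made the virus, summed to 177.5 to 279 CPM and 125 to 280.4 CPM, with LIN28B and CDX2 at 0 reads in all 6 libraries.

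**Figure D1:**
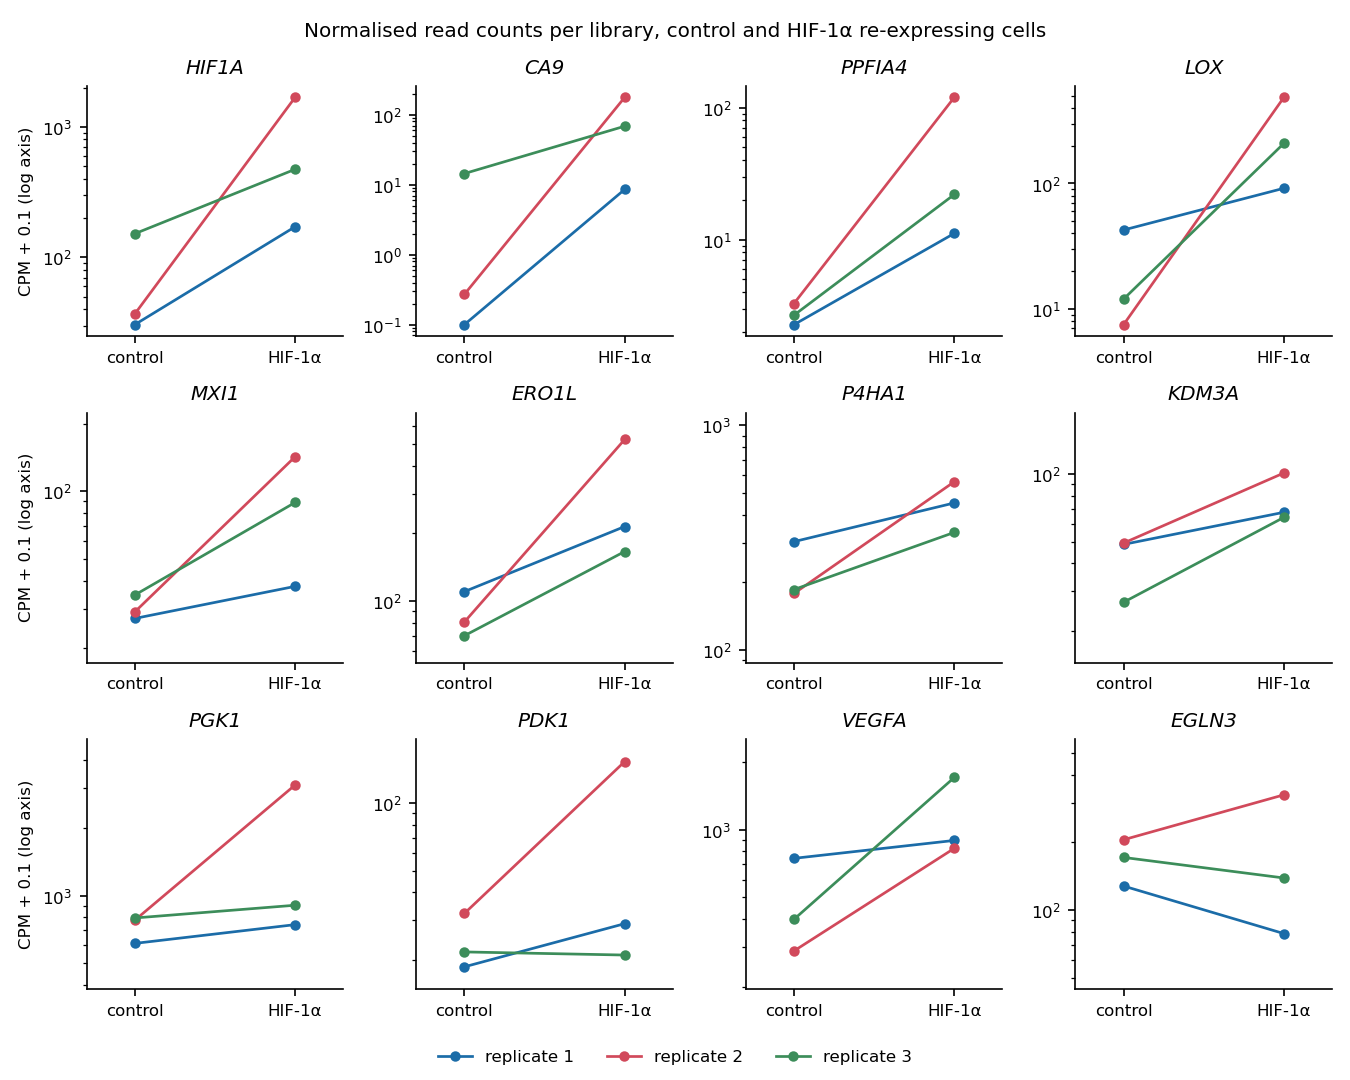
Normalised read counts (CPM + 0.1, log axis) of 12 genes in each control and HIF-1α library, with lines joining libraries of the same replicate number. HIF1A and CA9 rose in all 3 pairs. PGK1 and PDK1 were high in HIF-1α replicate 2 only, whereas KDM3A and P4HA1 rose in each pair.

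Re-expression of HIF-1α was followed by higher levels of 769 genes (5.41% of those tested) and lower levels of 363 genes (2.55%) at an adjusted p below 0.05. The rises were larger than the falls, with a median log2 fold change of 1.38 among genes called higher and -0.85 among genes called lower, against 0.04 over all genes tested. At least 4-fold changes numbered 186 upwards and 10 downwards. All 769 and all 363 moved in the same direction in each of the 3 pairs. The libraries of the groups did not overlap for 584 and 302 of them, beside 12.9% and 11.2% of all genes tested whose HIF-1α libraries lay wholly above or below the controls. These calls sat close to the threshold: the smallest adjusted p was 0.0264. In edgeR they rest on the pairing, since without the replicate block no gene passed (smallest adjusted p of 0.149, with 1586 higher and 1171 lower genes at an unadjusted p under 0.05). DESeq2 without the block called 488 higher and 278 lower, with 408 and 186 of them among the edgeR calls. The edgeR calls also rest on single libraries, since none was left without HIF-1α library 2 or without control library 2 or 3, 31 higher and 3 lower genes were left without HIF-1α library 3, and 194 and 17 without HIF-1α library 1, while 1333 and 1075 were called without control library 1. The largest ratio was that of pair 3 for 467 of the 769 genes, of pair 2 for 247 and of pair 1 for 55, although pair 2 had the most HIF1A. In bulk RNA a lower level in every cell and fewer cells of one kind cannot be told apart.

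Transcript length moved with the change. Across eighths of the genes ordered by the length of their main transcript, the median log2 fold change went from -0.37 in the shortest (up to 1.4 kb) to 0.51 in the longest (above 7.0 kb). Calls followed: 1.86% higher and 8.62% lower among the shortest, 19% higher and 0.70% lower among the longest. The trend was present in each pair and also in the HIF-2α overexpressing cells, where the medians went from -0.31 to 0.29. When a smooth function of length was put into the fit as an offset, 43 genes remained higher (0.314%) and 30 lower (0.219%) of 13716 with a length. All 43 and 26 of the 30 were among the first calls. The offset moved the median of all genes from 0.04 to -0.09, so that length-adjusted values below are read against -0.09. Its part in each result was not tested further, and the length-adjusted median is given beside the gene lists described below. Calls in every list are to be read beside 5.41% higher and 2.55% lower of all genes tested.

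**Figure D2:**
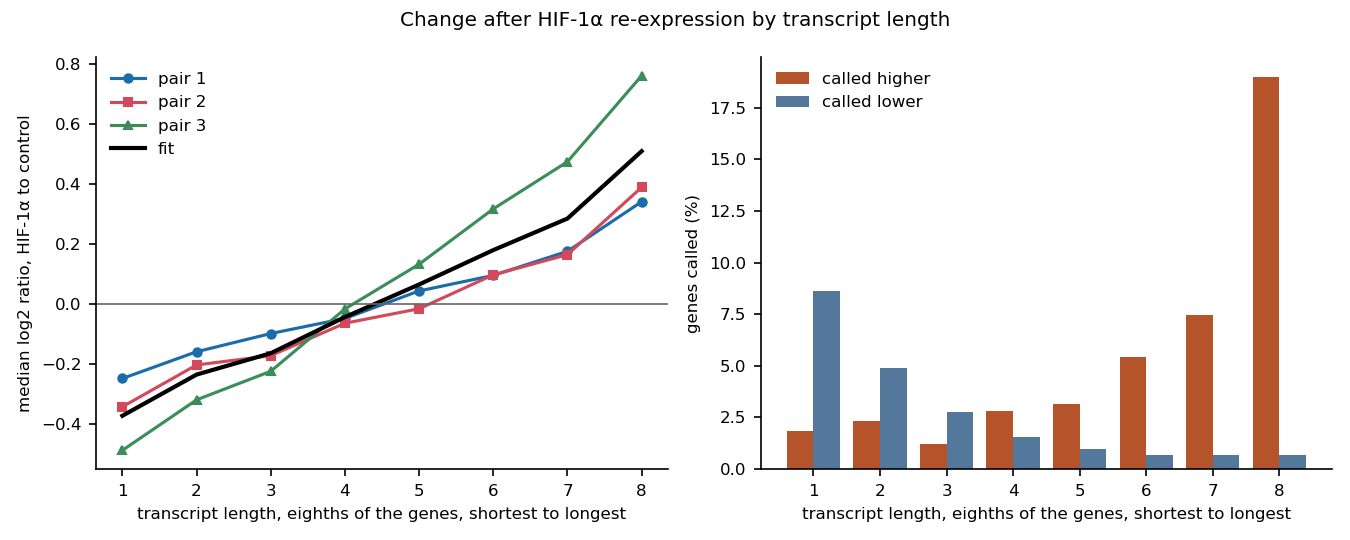
Left, median log2 ratio of HIF-1α to control libraries for eighths of the genes by transcript length, for each replicate pair and for the fit. Right, percent of genes called higher or lower in each eighth. Long transcripts were higher and short transcripts lower in all 3 pairs, with 19% of the longest eighth called higher.

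The 15 largest among the 458 genes that rose, reached 5 CPM and had groups apart were ISM2, L1CAM, MAP3K15, IGFBP5, NIM1, LOX, PPFIA4, DNAH11, HOXA13, KIAA0754, HIF1A, SPRY1, ZBED6, CCDC144B and SDK1. ISM2, a secreted isthmin, was nearly silent in the controls with 0, 0 and 3 reads and had 13, 682 and 66 reads after re-expression, a ratio per depth of 212 (exact 95% interval 72.4 to 1030, counting error only). L1CAM, an adhesion molecule of growing axons that is also found in invasive tumours, went from 14.9, 6.71 and 1.77 CPM to 119.6, 604 and 30.2 CPM (log2 fold change 4.61 ± 0.75, adjusted p = 0.0308). Its groups were apart by the selection, and the largest step was in pair 2. LOX, the lysyl oxidase that crosslinks collagen and a known hypoxia target, measured 42.5, 7.4 and 11.9 CPM in the controls and 91.5, 485 and 209 CPM after re-expression (3.70 ± 0.80, adjusted p = 0.0388). PPFIA4, which encodes the scaffold protein liprin-α4, rose from 2.17, 3.19 and 2.58 CPM to 11.1, 119 and 21.9 CPM (3.69 ± 0.56, adjusted p = 0.0293). Left-out replicates moved these estimates: LOX was 2.52 without replicate 2 and 5.07 without replicate 1.

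Other genes of the 15 have varied functions. IGFBP5, a binding protein for insulin-like growth factors, moved from 0.103, 0.0569 and 1.49 CPM to 2.5, 3.49 and 12.5 CPM (3.96 ± 0.61, adjusted p = 0.0299). SPRY1, an inhibitor of receptor tyrosine kinase signalling, stood at 0.595, 0.512 and 0.703 CPM and then at 1.57, 20.3 and 3.63 CPM (3.07 ± 0.67, adjusted p = 0.0385). The kinases MAP3K15 (4.29 ± 0.63) and NIM1 (3.88 ± 0.65, related to AMP-activated kinase), the homeobox gene HOXA13 (3.31 ± 0.53), the axonemal dynein DNAH11 (3.55 ± 0.50) and the adhesion protein SDK1 (2.93 ± 0.41) reached no more than 6.05 CPM in any control library. Replicate 2 had the highest HIF-1α level of MAP3K15, NIM1, HOXA13, DNAH11 and SPRY1, while replicate 3 had that of SDK1 and IGFBP5. Under the length offset ISM2, L1CAM, MAP3K15, NIM1 and SDK1 still passed, with values of 6.89, 4.34, 4.03, 3.92 and 2.34, and the others that have a length had adjusted p-values of 0.0506 to 0.0762. 3 of the 15 are uncertain as single genes: ZBED6 lies within ZC3H11A on the same strand, CCDC144B has near-identical copies, and KIAA0754 had no entry in the annotation.

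**Figure D3:**
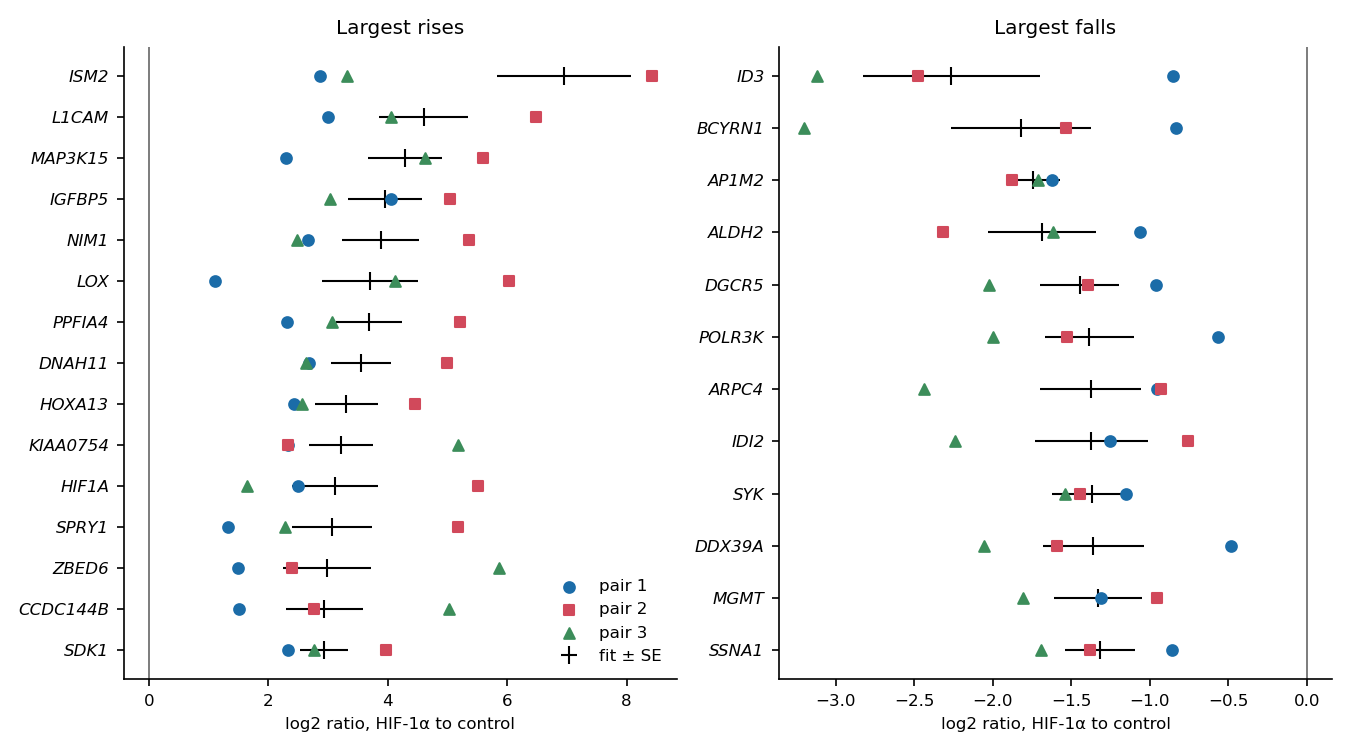
Log2 ratio of HIF-1α to control library in each replicate pair (coloured symbols) and the fitted log2 fold change with its SE (black) for the 15 largest rises and 12 largest falls. All pairs lie on 1 side of 0 for each gene because agreeing pairs were a condition of the selection. Pair 2 gives the largest ratio for ISM2, L1CAM, LOX and PPFIA4.

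HIF-1α itself was bound near several of these genes. The peak windows deposited for HIF-1α in the re-expressing cells are 5147 in number and have no score. Sequence is shown for the windows nearest to a start site, within 1 kb, of the called genes with the smallest adjusted p among the largest rises and the hypoxia lists, and for CA9 as the marker. RORA, SDK1, PPFIA4 and HOXA13 each had 1 core within the central 300 bases, NIM1 had none, and each run below is centred on the core nearest to the middle of the window. Capitals mark the core, written along the gene's strand, so that CACGT is the reverse complement of ACGTG. The runs are from GRCh37, and that of CA9 is kept short because it crosses an untranslated region of ARHGEF39.
RORA, chr15:60884423-60884547, minus strand, within the gene and outside its exons: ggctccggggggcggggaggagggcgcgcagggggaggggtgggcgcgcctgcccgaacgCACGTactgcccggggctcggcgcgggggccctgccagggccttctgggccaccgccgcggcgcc
SDK1, chr7:3340302-3340426, plus strand, 520 bases before the nearest start site: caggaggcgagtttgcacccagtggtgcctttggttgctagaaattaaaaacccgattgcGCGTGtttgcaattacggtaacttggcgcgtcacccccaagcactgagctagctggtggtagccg
PPFIA4, chr1:202995934-202996058, plus strand, within the gene and outside its exons: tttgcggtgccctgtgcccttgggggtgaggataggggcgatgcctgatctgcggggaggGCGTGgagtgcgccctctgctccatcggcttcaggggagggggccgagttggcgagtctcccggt
HOXA13, chr7:27239931-27240055, minus strand, 283 bases before the nearest start site and within HOTTIP: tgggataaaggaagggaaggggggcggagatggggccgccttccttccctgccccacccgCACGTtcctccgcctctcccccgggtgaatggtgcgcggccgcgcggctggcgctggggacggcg
CA9, chr9:35673895-35673923, plus strand, 16 bases before the nearest start site: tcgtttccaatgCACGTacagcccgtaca
ACGTG or GCGTG, on either strand, was present in the central 300 bases of 65.4% of all 5147 windows and in 35.2% of stretches of equal length 10 kb away. In RefSeq promoters of 300 bases (GRCh38.p14) a core was found for 60.6% of 578 genes called higher, 67.3% of 297 called lower and 62.1% of 11007 tested. A match marks these letters only.

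The falls were smaller and spread over other functions. ID3, an inhibitor of basic helix-loop-helix factors, gave the largest fall of the 288 that met the same conditions, from 24, 83 and 66.3 CPM to 13.3, 14.9 and 7.58 CPM (-2.26 ± 0.57, adjusted p = 0.0455). AP1M2, the μ subunit of the clathrin adaptor that sorts proteins to the basolateral side of epithelial cells, dropped from 30.7, 58.4 and 30.1 CPM to 9.93, 15.9 and 9.18 CPM (-1.74 ± 0.17, adjusted p = 0.0264) and kept its call under the length offset (-1.61, adjusted p = 0.0382). ALDH2, the mitochondrial enzyme that oxidises acetaldehyde, had 63.8, 110.4 and 50.9 CPM and then 30.5, 22.1 and 16.6 CPM (-1.69 ± 0.34; length-adjusted -2.25, adjusted p = 0.0488). Groups apart was a condition for these 3 genes, and AP1M2 fell by nearly the same amount in each pair. The tyrosine kinase SYK (-1.37 ± 0.26) and the DNA repair protein MGMT (-1.33 ± 0.28) followed, with SYK also called under the offset (-1.64, adjusted p = 0.0451). The remaining falls were the RNA genes BCYRN1 (-1.82) and DGCR5 (-1.45), the RNA polymerase III subunit POLR3K (-1.39), ARPC4 of the actin-branching complex (-1.38), the isomerase IDI2 (-1.37), the RNA helicase DDX39A (-1.36) and SSNA1 (-1.32). ARPC4 shares its strand with a read-through transcript, and IDI2 overlaps genes on the other strand.

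Of the 500 most abundant genes 18 were called higher and 6 lower with groups apart, beside 584 and 302 of all 14225 genes tested. The 5 largest of each among the 500 are named here. FN1, which encodes fibronectin, measured 4196, 5985 and 2604 CPM in the controls and 12329, 24413 and 17805 CPM after re-expression (2.03 ± 0.43, adjusted p = 0.0371). COL6A3 (2.37 ± 0.59), the basement membrane proteoglycan HSPG2 (1.62 ± 0.28) and the vitronectin receptor subunit ITGB3 (1.62 ± 0.32) rose beside it and HIF1A. The largest falls were S100A11 (-1.06 ± 0.22), a calcium-binding protein, the chaperonin subunit CCT3 (-0.89 ± 0.21), lamin A/C LMNA (-0.89 ± 0.20), the myosin light chain MYL6 (-0.84 ± 0.22) and the actin-capping protein CAPG (-0.79 ± 0.19). The 4 named risers other than HIF1A come from transcripts of 5.94 to 14.3 kb, and the named falls from transcripts of 0.563 to 3.18 kb. With the offset none of these 10 passed (adjusted p of 0.0524 to 0.0947).

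The hypoxia pathway was read through 10 lists with 137 distinct genes tested. Of these, 17 were called higher (12.4%, against 5.41% of all genes) and 3 lower, with a median log2 fold change of 0.47 (0.30 with the length offset, where 1 was called higher and 1, GYG1, lower). The genes called higher were CA9, SLC4A7, MXI1, BNIP3L, NRP1, LOX, P4HA1, KDM3A, KDM6B, KDM7A, PPP1R3C, GBE1, RORA, TXNIP, ERO1L, WSB1 and TMEM45A. A HIF-1α window lay within 1 kb of a start site for 15 of them, SLC4A7 and TXNIP being the exceptions, and for 81 of all 137 (59.1%). Among all genes tested that have an annotated start site the share was 28.3%. The pairs differed: the median log2 ratio was 0.06 in pair 1, 0.72 in pair 2 and 0.45 in pair 3, against 0.03, 0.00 and 0.08 over all genes. At least 2-fold higher were 6, 56 and 40 of the 137 genes in pairs 1, 2 and 3, which is 4.38%, 40.9% and 29.2% beside 6.43%, 12.3% and 18.2% of all genes tested. HIF1A itself was lowest in HIF-1α library 1 and highest in library 2.

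Glycolysis, the pathway most tied to HIF-1α, had no member past the test: 0 of 20 genes higher and 0 lower, with a median of 0.24 (0.17 length-adjusted). The median hid a split between pairs, -0.10, 0.94 and -0.29, with 18 of 20 genes higher in pair 2 against 7 and 8 in pairs 1 and 3. PGK1, phosphoglycerate kinase, had 612, 776 and 795 CPM in the controls and 742, 3104 and 906 CPM in the HIF-1α libraries, so that replicate 2 stood far above all others (log2 fold change 0.91 ± 0.40, adjusted p = 0.152). PFKFB4, which sets fructose 2,6-bisphosphate, showed 28, 37.7 and 14.6 CPM and 32.4, 184 and 34.9 CPM (1.31 ± 0.35, adjusted p = 0.0517). ALDOC, a fructose-bisphosphate aldolase, went from 4.52 to 78.5 CPM in pair 2 and was lower after re-expression in pairs 1 and 3. PFKFB4 and ALDOC were singled out after their values were seen. The glucose transporter SLC2A1 (1264, 995 and 944 CPM, then 1062, 1505 and 1095 CPM; adjusted p = 0.681) and LDHA (1526, 2614 and 2952 CPM, then 1599, 3548 and 1307 CPM; adjusted p = 0.719) overlapped between groups. LDHA was lower after re-expression in pair 3 and higher in pairs 1 and 2.

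**Figure D4:**
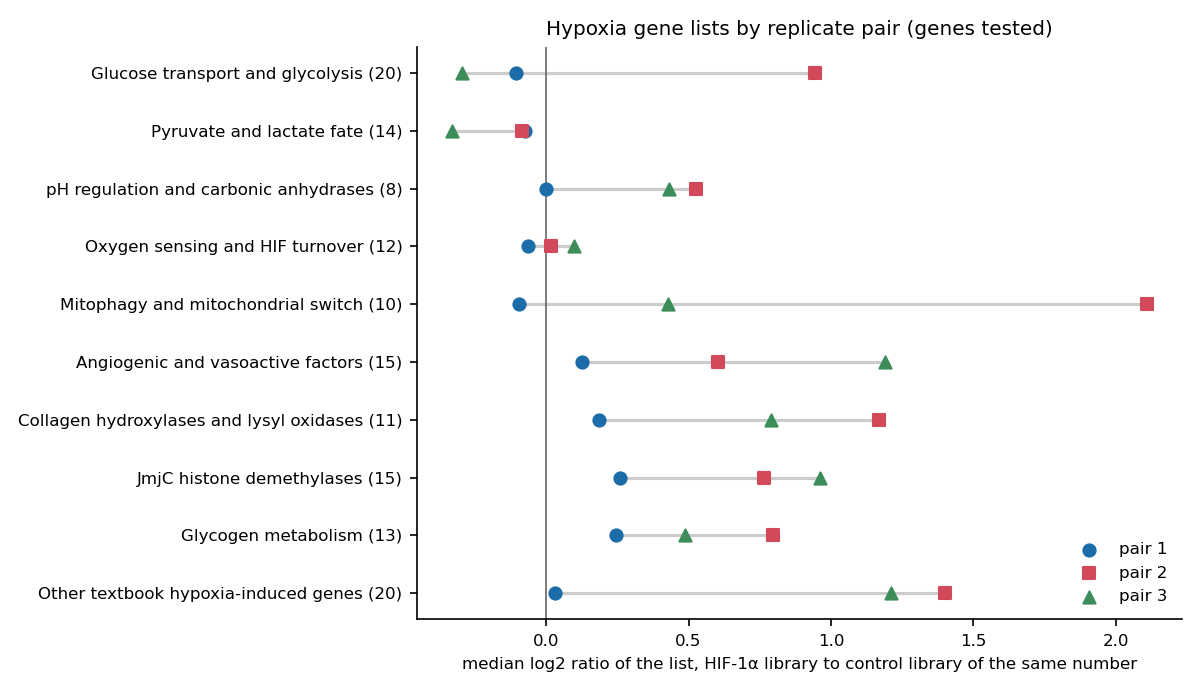
Median log2 ratio of HIF-1α to control library for 10 hypoxia gene lists, with the number of genes tested in parentheses and 1 symbol for each replicate pair. Pair 2 lies furthest right for glycolysis and for mitophagy, while pair 1 stays near 0 in most lists.

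Genes for the fate of pyruvate and lactate gave 1 call. PDK1, the kinase that shuts pyruvate dehydrogenase, measured 18.5, 32.1 and 21.6 CPM and 28.9, 153 and 20.9 CPM (1.10 ± 0.48, adjusted p = 0.142), high in replicate 2 only. In the list of pyruvate and lactate fate 0 of 14 genes rose and 1 fell, MPC2, a subunit of the mitochondrial pyruvate carrier (58.1, 110.1 and 113 CPM, then 32.1, 43.3 and 52.2 CPM; -1.12 ± 0.20, adjusted p = 0.032). Every HIF-1α library held less MPC2 than every control library. The list as a whole lay slightly below 0 (median -0.095, length-adjusted -0.22; pair medians -0.076, -0.087 and -0.33), so that the step of PDK1 in pair 2 was not that of the list.

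The list of mitophagy and the mitochondrial switch had 2 of 10 genes higher (20.0%, beside 5.41% of all genes) and none lower (median 0.70, length-adjusted 0.72, pair medians -0.096, 2.11 and 0.43). MXI1, an antagonist of MYC that HIF-1 induces, rose from 27, 28.9 and 34.4 CPM to 37.6, 142 and 88.9 CPM (1.38 ± 0.30, adjusted p = 0.0389). It was also the 1 call among 11 genes of the MYC and MAX network (9.09%, median 0.47, length-adjusted -0.071). BNIP3L, a mitophagy receptor, rose from 89.5, 86.5 and 113 CPM to 138, 352 and 180.1 CPM (1.12 ± 0.27, adjusted p = 0.0439). Both were apart between groups. Its relative BNIP3 was also apart, with 100.4, 97.4 and 122 CPM and 202, 818 and 203 CPM, but its larger spread left it outside the threshold (1.72 ± 0.49, adjusted p = 0.0575).

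Oxygen sensing itself had few calls, with 0 of 12 genes higher and 1 lower (median 0.097, length-adjusted -0.23). TCEB1, the elongin C subunit of the VHL ligase, was lower (-0.78 ± 0.18, adjusted p = 0.0424). The prolyl hydroxylase EGLN1 had 71.2, 85 and 64.4 CPM and 90.1, 212 and 69 CPM (0.64 ± 0.29, adjusted p = 0.16), and EGLN3, another of the family, 128, 205 and 171 CPM and 78.4, 325 and 139 CPM (-0.11 ± 0.25, adjusted p = 0.781). EGLN3 was lower in pairs 1 and 3 and higher in pair 2. For acid export 2 of 8 genes rose, CA9 and the sodium bicarbonate transporter SLC4A7, which went from 40.1, 45.9 and 30.6 CPM to 89.2, 119 and 137 CPM (1.59 ± 0.25, adjusted p = 0.0308; length-adjusted 1.07, adjusted p = 0.0524). These 2 genes made 25.0% of the list, beside 5.41% of all genes. The list median was 0.19 and turned to -0.11 with the length offset.

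Among angiogenic and vasoactive factors 1 of 15 passed, 6.67% beside 5.41% of all genes (median 0.50, length-adjusted 0.46). NRP1, a co-receptor for VEGF and semaphorins, rose from 155, 169.6 and 224 CPM to 276, 327 and 544 CPM (1.03 ± 0.20, adjusted p = 0.0352). VEGFA measured 745, 288 and 399 CPM and 895, 826 and 1707 CPM, apart between groups, with a log2 fold change of 1.24 ± 0.41 that missed the threshold (adjusted p = 0.0816). ADM, the vasodilator adrenomedullin, was lower in pair 1 and higher in pairs 2 and 3 (0.38 ± 0.30, adjusted p = 0.403).

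Enzymes that shape collagen and chromatin with oxygen as a substrate contained several risers. Of 11 collagen hydroxylases and lysyl oxidases, LOX and P4HA1 rose (18.2%, beside 5.41% of all genes) and none fell (median 0.55, length-adjusted 0.51). P4HA1, the catalytic subunit of collagen prolyl 4-hydroxylase, went from 304, 179 and 186 CPM to 452, 561 and 334 CPM (1.00 ± 0.24, adjusted p = 0.0426). Of 15 JmjC histone demethylases 3 rose (20.0%, beside 5.41% of all genes) and none fell (median 0.57, length-adjusted 0.16). KDM3A, which removes methyl groups from lysine 9 of histone H3, rose from 48.4, 49.1 and 26.7 CPM to 67.4, 101 and 63.9 CPM (0.91 ± 0.19, adjusted p = 0.0371). KDM6B (1.22 ± 0.27, adjusted p = 0.0394) and KDM7A (1.67 ± 0.39, adjusted p = 0.0419) were apart between groups in the same way. All 5 of these genes had a HIF-1α window within 1 kb of a start site.

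Glycogen metabolism had 2 of 13 genes higher and 1 lower (median 0.67, length-adjusted 0.43). These shares were 15.4% and 7.69%, beside 5.41% and 2.55% of all genes. GBE1, the branching enzyme, rose from 61.7, 113 and 110.1 CPM to 121, 316 and 180.1 CPM (1.08 ± 0.25, adjusted p = 0.0426), and PPP1R3C, which brings a phosphatase to glycogen and favours its synthesis, from 5.87, 6.77 and 9.33 CPM to 9.76, 43.1 and 32.6 CPM (1.80 ± 0.35, adjusted p = 0.0357). Glycogenin GYG1, the primer of new glycogen, fell from 81.8, 66.4 and 52.1 CPM to 49.2, 27.8 and 19.5 CPM (-1.12 ± 0.21, adjusted p = 0.0352), and this call held under the length offset (-1.49, adjusted p = 0.0451). The 3 genes were apart between groups.

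In the list of other textbook hypoxia genes 5 of 20 rose and none fell, with the highest median of all lists in the figure of list medians (0.99, length-adjusted 0.85). RORA, a nuclear receptor of lipid and clock regulation, was almost absent from the controls with 1, 1 and 2 reads and had 26, 384 and 79 reads after re-expression, a ratio of 102 per depth (exact 95% interval 39.7 to 377, counting error only). It was the only gene of the hypoxia lists called higher under the length offset (5.55, adjusted p = 0.047). ERO1L, an oxidase of disulfide formation in the endoplasmic reticulum, rose from 109.8, 80.4 and 69.8 CPM to 214, 522 and 166 CPM (1.62 ± 0.31, adjusted p = 0.0352). TXNIP, an inhibitor of glucose uptake and thioredoxin, measured 1.22, 52.1 and 85.7 CPM and 1.91, 274 and 809 CPM: replicate 1 was low in both groups, pairs 2 and 3 rose strongly and the groups overlapped (2.31 ± 0.43, adjusted p = 0.034). WSB1 (1.14 ± 0.24) and TMEM45A (1.39 ± 0.35) completed the list. NDRG1 (3564, 1838 and 2218 CPM, then 2505, 2535 and 2336 CPM; adjusted p = 0.923) and ANKRD37 (1.51 ± 0.57, adjusted p = 0.11) did not pass.

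Genes tied to HIF-2α in renal cancer cells mostly failed the test after HIF-1α re-expression. Of 14 genes 0 were lower (median 0.29, length-adjusted 0.14) and 1 was higher (7.14%, beside 5.41% of all genes). That gene was ATXN1 (0.81 ± 0.20, adjusted p = 0.0459; length-adjusted 0.22, adjusted p = 0.416). CCND1, cyclin D1, had 1191, 698 and 1099 CPM and 1327, 728 and 1597 CPM (0.26 ± 0.26, adjusted p = 0.514). TGFA, a ligand of the EGF receptor, had 958, 570.5 and 970.5 CPM and 596, 459 and 617 CPM, lower in all 3 pairs but overlapping (-0.57 ± 0.27, adjusted p = 0.174).

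Outside the hypoxia response, the calls among mitochondrial energy genes were all downward. Of 36 subunits of complex I, 8 fell and 0 rose (median -0.55, length-adjusted -0.38), and of 35 subunits of complexes II to V, 7 fell and 0 rose (median -0.61, length-adjusted -0.40), beside 2.55% of all genes. NDUFB2 went from 119, 122 and 125 CPM to 73.3, 61.1 and 44.6 CPM (-1.07 ± 0.21, adjusted p = 0.0358) and COX5A from 103, 96.4 and 109 CPM to 72.2, 51.2 and 50.0 CPM (-0.85 ± 0.17, adjusted p = 0.0358). The groups were apart in both. NDUFA8, NDUFC2, NDUFS6, NDUFB11, COX6C, ATP5J, COX6A1 and ATP5G2 fell by log2 fold changes between -0.65 and -0.95. These are very short transcripts, with list medians of 0.691 and 1.1 kb, the range in which genes as a whole were lower, and with the offset none of the subunits passed. In the HIF-2α overexpressing cells, against the same controls, their medians were -0.43 and -0.43. In the citric acid cycle, with transcripts of 2.5 kb, 3 of 18 genes fell and 0 rose (median -0.35, length-adjusted -0.32). Fumarase FH went from 105, 173 and 156 CPM to 74.5, 66.1 and 53.8 CPM (-1.15 ± 0.22, adjusted p = 0.0357), with SUCLG1 (-0.80 ± 0.19) and MDH2 (-0.68 ± 0.17) behind it.

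In sterol synthesis 5 of 22 genes fell (22.7%, beside 2.55% of all genes) and 0 rose, with a median of -0.56 that the length offset left at -0.54. MVK, mevalonate kinase, fell from 39.8, 36.9 and 21.3 CPM to 15.3, 12.7 and 11.7 CPM (-1.25 ± 0.21, adjusted p = 0.0315) and passed under the offset as well (-1.27, adjusted p = 0.0486). EBP, an isomerase of late cholesterol synthesis, fell from 160.2, 188 and 149.8 CPM to 71.2, 73.7 and 79.9 CPM (-1.14 ± 0.20, adjusted p = 0.0315), and farnesyl diphosphate synthase FDPS from 253, 290.1 and 244 CPM to 127, 135 and 148 CPM (-0.94 ± 0.17, adjusted p = 0.032). NSDHL (-0.93 ± 0.17) and PMVK (-0.80 ± 0.16) fell by similar amounts, and all 5 were apart between groups. The list did not move as one in every pair, with medians of -0.84, -0.81 and 0.019 in pairs 1, 2 and 3. The desaturase FADS2 was the 1 call in fatty acid synthesis (-0.89 ± 0.21, adjusted p = 0.0431; 1 of 13 lower; median -0.087, length-adjusted -0.27). Genes of lipid droplets and fatty acid oxidation had 0 of 16 called (median -0.21, length-adjusted -0.20), and iron and heme genes 1 of 15, HMOX2, lower (-0.92 ± 0.18, adjusted p = 0.0357; median 0.049, length-adjusted -0.011).

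Extracellular matrix and adhesion genes were among the rises. Of 15 collagens tested 6 were higher and none lower, a share of 40.0% beside 5.41% of all genes (median 0.86, length-adjusted 0.53, pair medians 0.65, 0.50 and 1.15). COL7A1, the anchoring fibril collagen, rose from 371, 339 and 221 CPM to 869, 609 and 909 CPM (1.36 ± 0.24, adjusted p = 0.0319). All 3 chains of the classical collagen VI rose, COL6A1 (0.86 ± 0.17), COL6A2 (0.95 ± 0.22) and COL6A3, which went from 497, 263 and 245 CPM to 1877, 1282 and 1700.4 CPM (2.37 ± 0.59, adjusted p = 0.0454). COL7A1 and COL6A3 were apart between groups, whereas COL6A1 and COL6A2 overlapped because replicate 2 was low in both. COL12A1 (2.24 ± 0.50) and COL5A1 (3.57 ± 0.90) were the others. These are long transcripts (list median 6.45 kb), and under the offset none of the 6 passed.

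Of 22 integrins and laminins, receptors for the matrix and components of it, 5 were called higher (22.7%, beside 5.41% of all genes) and none lower (median 0.80, length-adjusted 0.35). ITGB4, the partner of integrin α6 in hemidesmosomes, measured 0.517, 0.455 and 4.64 CPM and 2.45, 2.43 and 29.6 CPM. It overlapped between groups because both replicate 3 libraries were high, but rose in each pair (2.45 ± 0.32, adjusted p = 0.0264), and was called under the offset too (2.06, adjusted p = 0.0403). ITGB3 and its partner ITGAV, which form the vitronectin receptor, went from 203, 135 and 140.0 and 277, 430.5 and 300.5 CPM to 280.4, 640.3 and 609.7 and 448, 623 and 669.6 CPM (log2 fold changes of 1.62 ± 0.32 and 0.80 ± 0.18). ITGA4 (2.07 ± 0.34) and the laminin chain LAMA5 (1.81 ± 0.35) rose as well. The metalloproteases of the matrix gave 2 of 19 higher, 10.5% beside 5.41% of all genes (median 0.49, length-adjusted 0.43). They were ADAMTS5 (1.48 ± 0.27, adjusted p = 0.0327) and ADAMTS15 (1.32 ± 0.34, adjusted p = 0.0493). The plasminogen activator system gave 0 of 7 (median 0.37, length-adjusted 0.41).

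Neural adhesion and axon guidance genes, which also act in vessel and tumour cell migration, had 6 of 28 members higher and 1 lower (median 0.56, length-adjusted 0.34). These shares were 21.4% and 3.57%, beside 5.41% and 2.55% of all genes. Besides L1CAM the risers were its relative NRCAM, from 5.95, 3.98 and 7.95 CPM to 31.1, 12.2 and 18.9 CPM (1.76 ± 0.27, adjusted p = 0.0299), the guidance cue NTN1 (2.13 ± 0.37), the receptor ROBO1 (1.16 ± 0.23), its ligand SLIT2 (1.26 ± 0.31) and EPHB4 (2.09 ± 0.51). SEMA6A, a transmembrane semaphorin, fell from 38.7, 205 and 168 CPM to 18, 73.7 and 77 CPM (-1.24 ± 0.18, adjusted p = 0.0293), with replicate 1 low in both groups and a drop of similar size in each pair. Its fall was also called under the offset (-1.69, adjusted p = 0.0382).

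**Figure D5:**
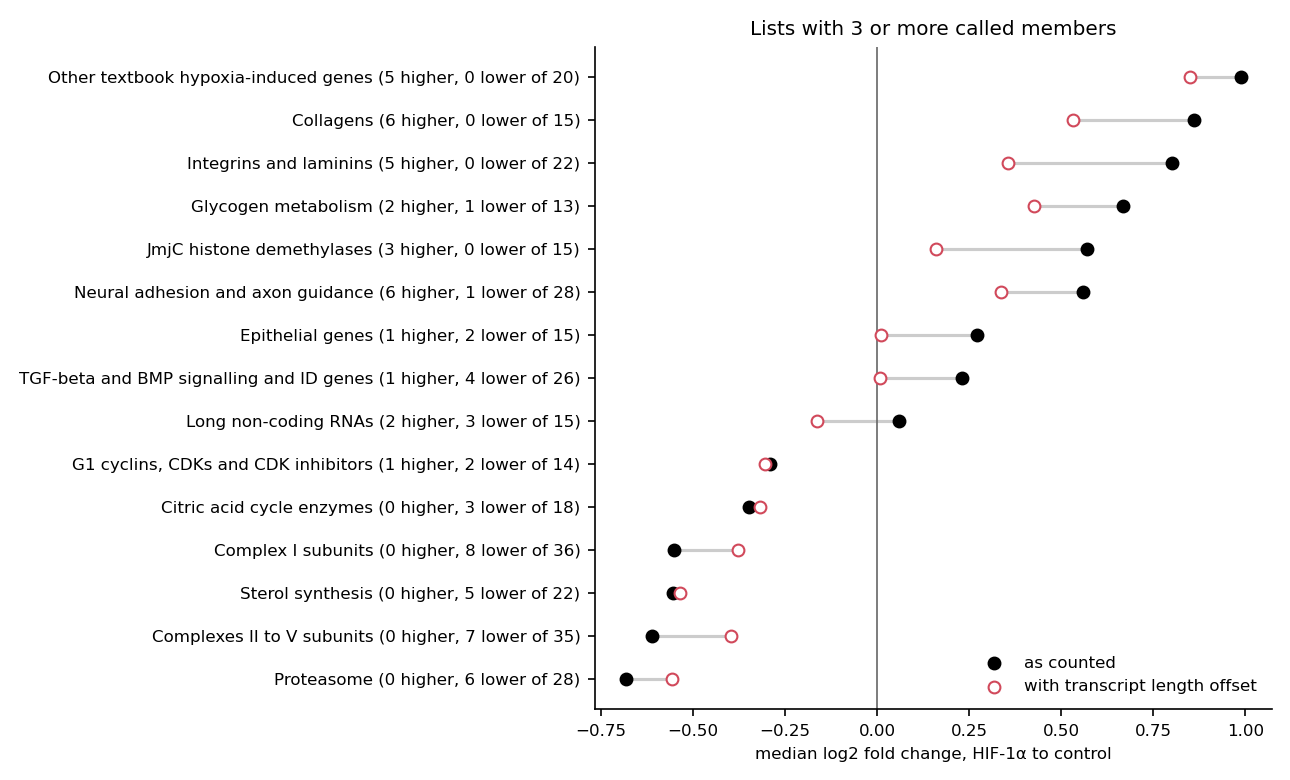
Median log2 fold change (HIF-1α to control) of gene lists with 3 or more called members, as counted (black) and with the transcript length offset (open). Matrix, adhesion and textbook hypoxia lists lie above 0 and mitochondrial, sterol and proteasome lists below 0 in both, and the offset pulls the matrix and respiratory chain lists towards 0.

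Calls among genes of growth and protein turnover were few and mostly downward. The proteasome had 6 of 28 subunits lower (21.4%, beside 2.55% of all genes) and none higher (median -0.68, length-adjusted -0.56). PSMD4, the ubiquitin receptor of the particle, went from 122, 148 and 139 CPM to 85.7, 79.9 and 69.1 CPM (-0.81 ± 0.17, adjusted p = 0.0375), and PSMB4, PSMB7, PSMA5 and PSMC2 fell by log2 fold changes of -0.80, -0.83, -0.75 and -0.82. DNA replication genes had no call in 31 and pair medians of 0.37, -0.68 and -1.28, so that pair 1 lay above 0 and pairs 2 and 3 below (fitted median -0.59, length-adjusted -0.57). Ribosome biogenesis had no call in 20 (median -0.66, length-adjusted -0.71; pair medians -0.016, -0.72 and -1.42) and mitosis none in 28 (median -0.19, length-adjusted -0.28). Of the 73 cytosolic ribosomal proteins 1 was lower (median -0.29, length-adjusted -0.10), RPS26 (-1.09 ± 0.25), which has processed copies elsewhere in the genome.

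Among cell cycle regulators CDKN1C, the inhibitor p57, rose from 4.14, 2.33 and 6.31 CPM to 13.2, 6.2 and 45.4 CPM (2.08 ± 0.44, adjusted p = 0.0366). CDK4 fell from 261, 232 and 249.6 CPM to 162, 137 and 131 CPM (-0.80 ± 0.16, adjusted p = 0.0358) and cyclin D3, CCND3, from 55, 74.8 and 55.6 CPM to 32.3, 52.2 and 21.9 CPM (-0.87 ± 0.22, adjusted p = 0.0454). CDK4 and CCND3 were apart between groups, while CDKN1C overlapped. These were the 3 calls among 14 genes of the list (median -0.29, length-adjusted -0.31). They made 7.14% higher and 14.3% lower, beside 5.41% and 2.55% of all genes. MYC itself had 117, 162 and 168 CPM and 133, 189 and 108 CPM (-0.046 ± 0.23, adjusted p = 0.906).

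Signalling lists had 0 to 5 calls each, in both directions for TGF-β and BMP signalling and upward for the others that had any. In TGF-β and BMP signalling the ligand BMP4, at about 1 CPM or less in the controls, rose from 0.285, 0.284 and 1.22 CPM to 1.2, 1.16 and 6.39 CPM (2.17 ± 0.57, adjusted p = 0.0493). Of the ID genes, direct targets of BMP signals, only ID4, ID2 and ID3 were called, all lower. ID4 fell from 1.01, 2.62 and 3.7 CPM to 0.196, 0.278 and 0.447 CPM (-2.92 ± 0.40, adjusted p = 0.0264, length-adjusted -3.08 with adjusted p = 0.0382). ID2 fell from 99.1, 95.9 and 131 CPM to 57.1, 63.9 and 49.6 CPM (-0.92 ± 0.20, adjusted p = 0.0402), and ID3 is given above. BAMBI, a decoy receptor that BMP also induces, was lower (-0.75 ± 0.18, adjusted p = 0.044). That made 1 higher and 4 lower of 26 genes (3.85% and 15.4%, beside 5.41% and 2.55% of all genes). The list median was 0.23 (length-adjusted 0.0083). These 3 called ID genes were apart between groups.

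EGFR, the EGF receptor, rose from 125, 90.6 and 38.1 CPM to 301, 251 and 209 CPM (1.71 ± 0.36, adjusted p = 0.0365; length-adjusted 1.15, adjusted p = 0.066) and was the 1 call among 10 ligands and receptors of its family (10.0%, median 0.27, length-adjusted 0.074). IGFBP5 and the mRNA-binding protein IGF2BP1 (2.60 ± 0.67) rose among 14 genes of IGF signalling (14.3%, median 0.36, length-adjusted 0.29). WNT5A (1.39 ± 0.26, adjusted p = 0.034) and the receptor FZD7 (0.74 ± 0.18, adjusted p = 0.0447) rose among 22 genes of the WNT pathway (9.09%, median 0.59, length-adjusted 0.32). MAML2 (0.76 ± 0.18) was the 1 call among 14 Notch genes (7.14%, median 0.26, length-adjusted 0.13), and AHR (0.98 ± 0.19) that among 11 genes of its own pathway (9.09%, median 0.14, length-adjusted -0.053). These shares rest on 1 or 2 genes each and stand beside 5.41% of all genes. FOSL2 was the 1 called of 7 AP-1 subunits (0.91 ± 0.23, adjusted p = 0.0455; median 0.47, length-adjusted 0.43) and none of 20 immediate early genes passed (median 0.17, length-adjusted 0.22).

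Stress and immune lists had 0 to 2 calls each, to be read beside 5.41% higher and 2.55% lower of all genes. The unfolded protein response gave 1 of 20 genes higher, SEL1L (1.21 ± 0.19; median -0.012, length-adjusted -0.056). Amino acid starvation gave 2 of 19, ALDH1L2 (2.33 ± 0.45) and VLDLR (1.29 ± 0.26; median -0.045, length-adjusted -0.025), and the NRF2 targets 1 of 20, ABCC3 (0.95 ± 0.18; median -0.15, length-adjusted -0.16). Among 15 heat shock proteins CRYAB rose from 1.68, 0.569 and 1.77 CPM to 5.49, 7.06 and 6.24 CPM (2.37 ± 0.42, adjusted p = 0.032; length-adjusted 2.61, adjusted p = 0.0461) and HSPE1 fell (-0.90 ± 0.23; list median -0.38, length-adjusted -0.33). The p53 target DDB2 was lower (-0.64 ± 0.16; 1 of 20, median -0.42, length-adjusted -0.34). Interferon genes had 1 of 29 lower, USP18 (-1.53 ± 0.40), and pair medians of -1.70, 0.59 and 0.0044, below 0 in pair 1 only (fitted median -0.49, length-adjusted -0.69). HLA-DRB1 was called higher among 5 class II genes on 0, 0 and 1 reads in the controls and 15, 188 and 33 after re-expression, a ratio of 198 per depth (exact 95% interval 35.1 to 7840, counting error only), and class II genes have near-identical copies (list median 0.33, length-adjusted 0.42).

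Markers of epithelial and kidney identity moved gene by gene. CDH1, E-cadherin, was called higher from a very low level, 0, 0.0284 and 0.938 CPM to 0.0245, 0.456 and 7.52 CPM (3.16 ± 0.47, adjusted p = 0.0293; length-adjusted 2.83, adjusted p = 0.049), with replicate 3 carrying most of the reads in both groups. Keratin 18, KRT18, fell from 212, 172 and 191 CPM to 142, 97 and 84.9 CPM (-0.86 ± 0.19, adjusted p = 0.0405), and with AP1M2 it made 2 lower of 15 epithelial genes (median 0.27, length-adjusted 0.012). CD70, a TNF family ligand abundant in clear cell renal cancer, fell from 234, 329 and 418 CPM to 116, 156 and 156 CPM (-1.17 ± 0.19, adjusted p = 0.0308). KRT18 and CD70 were apart between groups. Of 14 kidney lineage genes MME (1.39 ± 0.33) and AQP1 (2.51 ± 0.66, 8.38 CPM in HIF-1α replicate 3 and under 1 CPM elsewhere in the 6 libraries) rose (median -0.17, length-adjusted -0.33). Without replicate 3 the estimate for AQP1 was 1.26. FN1 was the 1 riser of 11 mesenchymal genes (median 0.30, length-adjusted 0.20). Among 15 long non-coding RNAs MIR210HG, the host of the hypoxia-induced miR-210, rose from 5.43, 7.94 and 9.38 CPM to 11.2, 41.1 and 17.9 CPM (1.45 ± 0.30, adjusted p = 0.0365) and KCNQ1OT1 rose (1.21 ± 0.19), whereas DANCR (-1.19 ± 0.24), LINC01116 (-0.74 ± 0.17) and BCYRN1 fell (median 0.059, length-adjusted -0.17). KCNQ1OT1 and MIR210HG were apart between groups, and 12 of the 57 lists of pathways and functions had no call.

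Cells given HIF-2α allowed the 2 subunits to be set against each other. HIF-1α cells exceeded HIF-2α cells for 646 genes (4.54%) and fell below them for 197 (1.38%). Of the 769 genes that rose over control, 287 (37.3%) were also higher than in HIF-2α cells, and of the 363 that fell 62 (17.1%) were also lower. Both comparisons use the same HIF-1α libraries, which makes such an overlap no independent evidence, and HIF-2α cells differed from control by 16 higher (0.112%) and 22 lower (0.155%) genes. EGLN3 was among the genes with more RNA under HIF-2α, 356, 912 and 650.4 CPM, a log2 difference (HIF-1α minus HIF-2α) of -1.94 ± 0.26 (adjusted p = 0.00515). TGFA had 1528, 2567 and 2858 CPM there (-2.06 ± 0.28, adjusted p = 0.00571) and NDRG1 3938, 11469.5 and 7544 CPM (-1.61 ± 0.40, adjusted p = 0.0474). For each of these 3 the HIF-2α libraries lay above all HIF-1α libraries.

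Some genes were higher under HIF-1α, BNIP3 and part of the matrix among them. BNIP3 had 85.2, 56.8 and 61.7 CPM in HIF-2α cells (2.36 ± 0.50, adjusted p = 0.0272), CA9 0.12, 0.105 and 0.694 CPM (8.85 ± 1.55, adjusted p = 0.0147) and NRP1 69.7, 98.3 and 89.9 CPM (2.10 ± 0.20, adjusted p = 0.00209). FN1 (2.75 ± 0.45, adjusted p = 0.0111), COL6A1 (2.12 ± 0.18, adjusted p = 0.00115), COL7A1 (1.20 ± 0.23, adjusted p = 0.0212), ITGB4 (2.75 ± 0.33, adjusted p = 0.00369) and CDKN1C (3.74 ± 0.49, adjusted p = 0.00502) were higher in HIF-1α than in HIF-2α cells. Part of these differences lay below control in HIF-2α cells. HIF-2α minus control was -0.64 for BNIP3, -3.13 for CA9, -1.08 for NRP1, -0.72 for FN1, -1.26 for COL6A1, -0.29 for ITGB4 and -1.66 for CDKN1C. It was 0.16 for COL7A1. Of these only COL6A1 passed (edgeR quasi-likelihood test, adjusted p = 0.0372). Of the lists, 4 of 15 collagens were higher than in HIF-2α cells and 1 lower, and 3 of 22 integrins and laminins were higher and 0 lower. Over all genes 4.54% were higher and 1.38% lower. COL6A3 (2.03 ± 0.62, adjusted p = 0.0924), COL12A1 (1.78 ± 0.50, adjusted p = 0.0719), HSPG2 (0.57 ± 0.27, adjusted p = 0.229) and ITGAV (0.20 ± 0.18, adjusted p = 0.513) did not pass. Nor did a difference pass for LOX (90.3, 115 and 96.3 CPM under HIF-2α; 1.35 ± 0.69, adjusted p = 0.262), P4HA1 (0.015 ± 0.23, adjusted p = 0.976), EGFR (0.31 ± 0.35, adjusted p = 0.61), VEGFA (0.11 ± 0.40, adjusted p = 0.889) or SLC2A1 (1591, 2959 and 2403 CPM; -0.92 ± 0.25, adjusted p = 0.065).

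Binding of HIF-1α near genes was then set beside the change, using the midpoint of each window and any annotated start site of the gene. Within 10 kb, 312 of 745 placed genes called higher had a window, 41.9% (95% Wilson interval 38.4 to 45.5, counting error only), beside 34.6% of all genes tested. By distance, 6.83% of 3893 genes with a window within 1 kb were called higher, 5.25% of 876 at 1 to 10 kb, 3.92% of 2217 at 10 to 50 kb and 5.10% of 6790 further away. Genes called lower made up 2.52%, 2.63%, 2.98% and 2.55% of the same classes. When a HIF-1β window of the same cells also lay within 1 kb, 7.96% of 2727 genes were called higher and 1.58% lower, and without it 4.20% of 1166 were higher and 4.72% lower. The median log2 fold change was near 0 in every distance class (-0.02 to 0.07). Under the length offset 11 of the 43 genes called higher had a window within 10 kb (25.6%). The ChIP-seq list is a single library, so these shares carry no replicate error.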

How the data were processed

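Raw counts per gene symbol were deposited by the authors, who by their methods trimmed adapters (Trim Galore 0.3.3), aligned reads to GRCh37 with TopHat2 2.0.8b and Bowtie 1.0.0, removed reads without a unique position (SAMtools 0.1.19) and counted UCSC genes with HTSeq 0.5.4p3 in intersection-strict mode. The kit is directional, but the strand setting of the counting is not given in the sources used here, so overlapping antisense genes may share reads. ChIP-seq peaks were deposited by the authors as window positions without a score, and only their coordinates were used.

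All 9 RNA-seq libraries entered 1 edgeR 4.0.16 quasi-likelihood fit (R 4.3.3) with cell pool and replicate number as terms, TMM factors, filterByExpr and Benjamini-Hochberg adjustment at 0.05, and contrasts were HIF-1α minus control and HIF-1α minus HIF-2α. HIF-2α minus control was a further contrast of the same fit. The SE of a fitted value was its absolute log2 fold change divided by the square root of the quasi-likelihood F. The replicate block was part of the comparison as set. The numbers pair the libraries: after pool means were removed, HIF-1α and control libraries of the same number correlated across genes at 0.491 to 0.604 and those of different numbers at -0.478 to -0.0991. Deviations within a pool sum to 0, so positive values at the same number force negative ones elsewhere on average. The ranges are therefore not independent of each other. The biological coefficient of variation was 24.57% with the block and 37.6% without it. Replicates differed by more than sampling noise. Alternatives used DESeq2 1.42.0, limma 3.58.1, other scaling, filters and left-out libraries. A fit with a spline of transcript length (5 degrees of freedom, GENCODE v44 on GRCh37) as offset was added after seeing the data. Scripts were tested on simulated data.

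The members, 62 gene lists and tests were chosen with earlier results of these data known, and 1194 of 1195 list entries matched the table. Named were HIF subunits and CA9, the 15 largest rises and 12 largest falls with at least 5 CPM, agreeing pairs and groups apart, 5 rises and 5 falls of the 500 most abundant genes, up to 5 called members per list with the smallest adjusted p, and 16 textbook hypoxia genes. Outside these rules, COL5A1, SLIT2 and EPHB4 were added as the remaining calls of their lists. Python 3.11.15 with pandas 2.3.3 and matplotlib 3.10.9 made the summaries and figures.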

Additional observations from a re-analysis of the deposited data

How the results depend on the processing

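The number of called genes depended on the fit. With no replicate block in edgeR there were 0 calls in either direction (0 higher, 0 lower), so that every call of the edgeR fit rests on the pairing. With only the 6 HIF-1α and control libraries 144 were higher and 11 lower (132 and 11 of them shared with the first calls). DESeq2 gave 1656 higher and 1299 lower with the block, and 488 and 278 without it (408 and 186 of these shared with the first calls). The transcript length offset gave 43 and 30, and length with GC content 80 and 61. Leaving out replicates gave 0 to 1333 higher and 0 to 1075 lower genes, with 0 of both without HIF-1α library 2, control library 2, control library 3 or all replicate 2 libraries, 1 and 0 without all replicate 3 libraries, and 1333 and 1075 without control library 1. The cause was not tested. limma voom (898 and 454), RLE factors (710 and 400), no filter on low counts (927 and 492), a minimum of 1 CPM in 3 libraries (690 and 372) and the genes with a length alone stayed within 1.5 times the first counts.

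The share of genes called higher with a HIF-1α window within 10 kb, 41.9%, was 32.6% with 6 libraries, 38.3% with DESeq2 and the block, 25.6% with the length offset, 33.8% with length and GC, and 30.0% to 100% when replicates were left out, the last of 1 gene. It was 35.7% within 1 kb and 53.6% within 50 kb. No share could be computed where no gene was called.

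The 131 called genes chosen by the naming rules were followed through these fits. COL5A1, SLIT2, EPHB4 and further members of the families described below were not. None of the 131 changed sign under any alternative. Selection made this likely, since every called gene had moved in the same direction in all 3 pairs. 130 kept their call under DESeq2 with the block, 128 under limma voom, 18 of 130 under the length offset and 0 in edgeR without the replicate block. DESeq2 without the block kept 93 of 129. The size of the fold was less stable: it moved by over 1.5 times under at least 1 alternative for 34 of the 131. On the log2 scale CA9 ran from 3.61 without replicate 2 to 9.86 without replicate 3, HIF1A from 1.97 to 4.14 in the same fits, LOX from 2.52 without replicate 2 to 5.07 without replicate 1, ISM2 from 4.26 to 11.2, and AQP1 from 1.26 without replicate 3 to 3.49 without the block. Genes that were not called changed sign in places. ARNT2 was -0.27 and -0.28 under the 2 offsets and -0.23 to 0.31 when replicates were left out. EGLN3 was 0.105 and 0.0933 without the block in edgeR and DESeq2, and -0.53 to 0.19 when replicates were left out. NDRG1 was 0.0096 under limma voom and -0.42 to 0.47 when replicates were left out. In the same leave-one-out fits LDHA ranged from -0.61 to 0.26, MYC from -0.29 to 0.24 and SLC2A1 from -0.0762 to 0.48. Depth was not the main limit for genes above a few CPM, since replicates spread more than counting error.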

Other observations

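The shares of called genes in some families defined by their symbols are given beside the 5.41% higher and 2.55% lower of all genes, and the families were picked after their values were seen. Mitochondrial ribosomal proteins of the large subunit had 10 of 49 genes (20.4%) lower and 0 higher (median log2 fold change -0.56, length-adjusted -0.39), among them MRPL20, MRPL23 and MRPL27, and those of the small subunit 2 of 30 (6.67%) lower, MRPS12 and MRPS36 (median -0.57, length-adjusted -0.44). Core spliceosome proteins with SNRP symbols had 5 of 11 (45.5%) lower and 0 higher (median -0.75, length-adjusted -0.52): SNRPF, SNRPG, SNRPD1, SNRPE and SNRPD3. RNA polymerase subunits had 4 of 31 (12.9%) lower (POLR3K, POLR2F, POLR2J and POLR2K). Chaperonin genes with CCT symbols had 1 of 10 lower (10.0%, CCT3) and initiation factors with EIF symbols 1 of 50 (2.00%, EIF6). On the other side, receptor tyrosine phosphatases had 7 of 15 (46.7%) higher and 1 lower (median 0.64, length-adjusted 0.25), with PTPRU, PTPRH, PTPRS, PTPRG, PTPRM, PTPRF and PTPRD up and PTPRR down. Zinc finger genes with ZNF symbols had 34 of 465 (7.31%) higher and 1 lower (median 0.33, length-adjusted 0.14), and myosins 5 of 18 (27.8%) higher (median 0.78, length-adjusted 0.25). Golgins had 6 of 22 (27.3%) higher with a median of 0.85 that stayed at 0.81 with the length offset, but these 6 belong to the GOLGA6 and GOLGA8 copies, which share near-identical sequence. The median transcript was 1.14 kb for MRPL genes, 1.08 kb for SNRP genes, 6.01 kb for the phosphatases and 7.54 kb for the myosins, the same ordering as the trend with length, and its part in these families was not tested.

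Chromosome 14, which carries HIF1A, ISM2, ERO1L, BMP4, SEL1L and EGLN3, stood apart from the rest, and was picked after its values were seen. Of 434 genes tested there 52 were higher (12%) and 1 lower (0.23%), against 1.65% to 7.96% higher and 0.594% to 5.39% lower on the other chromosomes (Y left out). The median log2 fold change was 0.28 (others -0.13 to 0.16), 0.15 with the length offset (others -0.33 to 0.04), and 0.33, 0.19 and 0.27 in pairs 1, 2 and 3. The others reached 0.13, 0.11 and 0.31 in the same pairs. In HIF-2α overexpressing cells the chromosome 14 median against the same controls was -0.13 (others -0.09 to 0.18). Its transcripts had a median of 3.5 kb, beside 3.29 kb over all genes. No cause was tested.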
